A study of Homo sapiens with 4 samples.

Results

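The heat shock and chaperone genes are the protein-coding genes whose symbol begins with HSPA, HSPB, HSPD, HSPE, HSPH, HSP90, DNAJA, DNAJB, DNAJC or CCT2 to CCT8, or is TCP1. A total of 63 of them carried at least 1 NSUN2 RIP-seq peak, out of 12687 protein-coding genes with a peak. RIP-seq sequences the RNA that an antibody pulls down together with its protein (the IP library) and, beside it, RNA kept back from the cell lysate (the input library). The cells were PANC-1, an established human pancreatic ductal adenocarcinoma line with a wild-type genotype, and an anti-NSUN2 antibody was used in every IP. One group received 30 mM sodium lactate for 24 h and the other received ddH2O, the vehicle, for the same time. Each group had 1 IP and 1 input library, 4 libraries in all, so no value below has a replicate error and no difference between lactate and ddH2O could be tested. Intervals cover counting error only. No IP with a control antibody was analysed here, and in bulk RIP-seq more bound RNA and more of the transcript in the cell cannot be told apart.

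Chaperones hold unfolded or partly folded proteins and release them by cycles of ATP binding. HSP70 proteins take their clients from J-domain proteins, HSP90 matures kinases and receptors late in folding, and the chaperonins fold actin, tubulin and imported mitochondrial proteins inside a closed chamber. Heat shock factor 1 switches on many of these genes when proteins unfold, and tumour cells, pancreatic ones included, often hold high levels of them. NSUN2 is a methyltransferase that places 5-methylcytosine on tRNAs and on some mRNAs.

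The heat shock element, the DNA site that heat shock factors bind, links several members through their promoters, so the matches are shown first. A strict form of 3 alternating units, GAANNTTCNNGAA, was searched on both strands in the RefSeq promoters (GRCh38.p14, 250 bases before to 50 after a start site). It was found for 6 of the 57 members that had a promoter in the table (10.5%), against 85 of 15843 protein-coding genes with a promoter (0.537%). Counted by promoter, since a gene can have more than 1, it was in 6 of 76 member promoters (7.89%), in 0.49% of all 35116 promoters and in 0.405% of the 22199 protein-coding ones. One match is printed for each of the 6 genes, in the direction of the gene and with the pattern in capitals. Where the capitals begin with TTC, the pattern lay on the opposite strand. HSP90AB1, HSPA8 and HSPD1 each held a second match. The 2 matches of HSPD1 overlapped, because its run of repeats reads as the pattern on either strand.
HSP90AA1 (chr14:102087112-102087140, minus strand): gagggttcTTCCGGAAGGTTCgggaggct
HSP90AB1 (chr6:44247823-44247851, plus strand): tgagattgTTCTGGAAGCTTCtggattct
HSPA8 (chr11:123062171-123062199, minus strand): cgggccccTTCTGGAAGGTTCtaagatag
HSPD1 (chr2:197500060-197500088, minus strand): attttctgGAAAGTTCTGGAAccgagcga
DNAJA1 (chr9:33025268-33025296, plus strand): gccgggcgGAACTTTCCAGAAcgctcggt
DNAJB6 (chr7:157336865-157336893, plus strand): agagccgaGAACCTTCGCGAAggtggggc
A match is a description of the letters and not a bound site. The match of HSP90AA1 belongs to a start site inside the annotated gene, just upstream of the part of the gene where its RIP-seq reads lay. Called peaks touched the promoter window of CCT7 (1 lactate peak) and DNAJC10 (1 ddH2O peak) only among the members with a promoter in the table.

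The lactate list held 48104 peaks and the ddH2O list 95785. Reads were recovered for the 116484 merged peaks, in windows of 2000 bases that were the same length for every gene. A single mitochondrial ribosomal RNA, MT-RNR2, took 78.7% of the lactate window reads and 62.0% of the ddH2O window reads. Outside MT-RNR2 and MALAT1 the windows summed to 1945000 reads with lactate and 3536821 with ddH2O, a 1.82-fold difference. The part of this difference in the chaperone values was not tested. Windows are therefore given with their reads and, where lactate and ddH2O are compared, with 2 log2 ratios of lactate over ddH2O. The normalized ratio is that of the densities the authors scaled with MAnorm, and the library-sum ratio scales the reads by the sums outside MT-RNR2 and MALAT1, which raises the unscaled ratio by 0.86. The MAnorm scaling depended on density, with 0.13 added to a log2 ratio where the mean log2 density was 2 and 1.65 where it was 11. The keratins of ductal cells KRT7, KRT8, KRT18 and KRT19, chosen with the lists in view, each had a peak in both lists, while EPCAM, an epithelial surface marker, had none with lactate and 1 with ddH2O. The leukocyte marker PTPRC had the same, none with lactate and 1 with ddH2O.

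All 63 members had a ddH2O peak and 51 also had a lactate peak, with 349 and 160 peaks. No member had a peak with lactate alone, and 12 had one with ddH2O alone. These 12 were HSPA1A, HSPA4, HSPB1, HSPB8, CCT5, CCT8, DNAJB13, DNAJC9, DNAJC12, DNAJC14, DNAJC28 and HSPE1-MOB4. Over all protein-coding genes with a peak, 72.7% were in both lists, 22.9% in the ddH2O list alone and 4.37% in the lactate list alone, against 81.0%, 19.0% and none of the members. The wider ddH2O list was thus shared by protein-coding genes at large. Absence from the lactate list did not mean absence of reads. HSPA4 had 149 lactate and 479 ddH2O reads in its densest window, the most of these 12 genes.

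Of the 85 RefSeq protein-coding genes whose symbols matched, 50 (58.8%) had a lactate peak and 62 (72.9%) a ddH2O peak. The background over 20056 RefSeq protein-coding genes was 47.1% with lactate and 58.4% with ddH2O. HSPB11 was the 1 member listed otherwise by RefSeq. A peak was not called in either list for 23 genes. Among them were TCP1, the first subunit of the cytosolic chaperonin, HSPE1, the lid of the mitochondrial chaperonin, the inducible HSP70 genes HSPA1B and HSPA6, and DNAJB9 and DNAJB11, J-domain proteins of the endoplasmic reticulum. HSPA1A and HSPA1B are near-identical copies, so reads of either could not be assigned with certainty.

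The HSP90 genes held the densest chaperone windows of the experiment, and in each of those windows the ddH2O IP had more reads than the lactate IP. HSP90AA1 (ENSG00000080824), the stress-inducible cytosolic HSP90, had 4049 lactate reads and 10792 ddH2O reads in its densest window, over an exon peak at chr14:102084746-102086118. That is 2.67 times as many ddH2O reads (exact binomial 95% interval 2.57 to 2.76), with a normalized log2 ratio of 0.35 and a library-sum log2 ratio of -0.55. The direction of the gene's densest window thus flipped between the scalings. A neighbouring 3′ UTR peak at chr14:102083002-102083979 had 2122 lactate and 6788 ddH2O reads, with log2 ratios of -0.04 and -0.81. A further 3′ UTR window, at chr14:102081063-102081430, had 924 and 2599 reads with log2 ratios of -0.08 and -0.63. The introns of HSP90AA1 were sparse. Of its 24 windows, 20 were intronic, and none of those 20 held more than 36 reads over both libraries.

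HSP90AB1, the constitutive cytosolic HSP90, had 2847 lactate reads and 6059 ddH2O reads over an exon peak at chr6:44249429-44250673. The peak stood 11.4-fold over input with lactate and 18.7-fold with ddH2O, the latter being the highest fold of any chaperone peak in the ddH2O list. The normalized log2 ratio was 0.57 and the library-sum log2 ratio -0.23, again on opposite sides of no change. The next exon window of HSP90AB1 had 2434 and 4883 reads with log2 ratios of 0.61 and -0.14. It overlapped the first window, so the same reads entered both.

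HSP90B1, the HSP90 of the endoplasmic reticulum, varied along its length. Its densest window, at chr12:103946601-103947530, had 868 lactate and 1963 ddH2O reads with log2 ratios of 0.20 and -0.31. An upstream exon window at chr12:103938166-103938562 had 785 and 1359 reads with log2 ratios of 0.53 and 0.07, and with the window beside it was the only one of HSP90B1 with at least 20 reads above 0 on the library-sum scale. The lowest, at chr12:103943669-103944039, had 20 lactate and 92 ddH2O reads, with log2 ratios of -1.60 and -1.28. The counting intervals of the ddH2O over lactate read ratio in these 3 windows, 2.09 to 2.45, 1.58 to 1.89 and 2.81 to 7.88, did not overlap. The windows were chosen with their ratios in view, the last as the lowest, so this gap is a description and not a test. Over the 21 HSP90 windows with at least 20 reads, the median log2 ratio was -0.04 by normalized densities and -0.28 by library sums, with 4 windows (19.0%) over 2-fold lower by normalized densities and, by library sums, 1 (4.76%) lower and 1 higher. The share over all windows of that depth was 18.6% lower by normalized densities, close to that of HSP90. By library sums it was 8.77% lower and 17.0% higher, both above the HSP90 shares.

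Of the HSP70 family, 6 genes had a peak, and their read levels covered a wide range. HSPA9, the mitochondrial HSP70 (mortalin), had 1097 lactate and 3516 ddH2O reads over a 3′ UTR peak at chr5:138556072-138557021, with log2 ratios of -0.21 (normalized) and -0.82 (library sums). This peak had a fold over input of 11.7 with lactate, the highest of any chaperone peak in that list, and 14.6 with ddH2O. An overlapping exon window of HSPA9 had 524 and 2001 reads, with log2 ratios of -0.62 and -1.07. HSPA8, the constitutive cytosolic HSP70, stood at the other side. Its densest window, at chr11:123058244-123058659, had 342 lactate and 534 ddH2O reads, and its log2 ratio was above 0 by normalized densities (0.46) and by library sums (0.22, interval 0.02 to 0.42). The ratio of ddH2O over lactate reads was 1.56 (1.36 to 1.79) in this HSPA8 window and 3.82 (3.47 to 4.21) in the HSPA9 exon window. That HSPA9 window was lower with lactate than the densest one of the gene, so the pair shows a wider contrast than the densest windows do. HSPA5 (BiP), the HSP70 of the endoplasmic reticulum, had only 87 and 122 reads in its densest window, with log2 ratios of 0.27 and 0.38 and a library-sum interval of -0.04 to 0.78. HSPA1A, the inducible cytosolic HSP70, had 39 lactate and 61 ddH2O reads, log2 ratios of -0.05 and 0.23, and a ddH2O peak of 2.80-fold over input. None of the 12 HSP70 windows with at least 20 reads passed 2-fold in either direction by normalized densities, and 1 was over 2-fold lower by library sums. Over all windows 18.6% were lower and 7.65% higher by normalized densities, and 8.77% and 17.0% by library sums.

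The HSP110 proteins exchange the nucleotide of HSP70. HSPA4, described above, had log2 ratios of -0.69 and -0.82 in its densest window, at chr5:133104164-133104461. HSPH1 had 31 lactate and 88 ddH2O reads in its densest window, with log2 ratios of -0.88 and -0.61. All 6 HSPA4 and HSPH1 windows with at least 20 reads lay below 0 on both scales. The seventh window of the family, in an exon of HSPA4L at chr4:127820266-127820510, had 13 lactate and 12 ddH2O reads and log2 ratios of 0.37 and 0.97, above 0 on both.

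HSPD1, the barrel of the mitochondrial chaperonin, had 8 windows, all with at least 100 reads. The densest, at chr2:197488950-197489394, had 602 lactate and 1457 ddH2O reads, with a normalized log2 ratio of 0.02 and a library-sum log2 ratio of -0.41. The sparsest, at chr2:197497138-197497367, had 27 and 121 reads with log2 ratios of -1.51 and -1.26. By library sums all 8 windows were below 0.

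The cytosolic chaperonin folds actin and tubulin as stacked rings of 8 different subunits, and it was the family lowest with lactate by both scalings among those with at least 10 windows of 20 reads. Its 22 such windows had a median log2 ratio of -0.57 by normalized densities and -0.65 by library sums. Families with fewer windows were about as low. The mitochondrial chaperonin (8 windows) had medians of -0.58 and -0.65, and HSP110 (7 windows) -0.58 and -0.31. None was over 2-fold higher with lactate, and 8 (36.4%) were over 2-fold lower by each scaling. Over all windows 18.6% were lower and 7.65% higher by normalized densities, and 8.77% and 17.0% by library sums. CCT3 had 546 lactate and 1352 ddH2O reads in its densest window, with log2 ratios of -0.04 and -0.44. CCT6A had 321 and 962 reads over an exon peak at chr7:56057840-56058453, with log2 ratios of -0.42 and -0.72 and folds over input of 4.54 with lactate and 13.4 with ddH2O. The densest windows of CCT4 (253 and 725 reads, log2 ratios -0.41 and -0.65), CCT2 (179 and 425, -0.25 and -0.38) and CCT8 (101 and 289, -0.63 and -0.64) also lay below 0 on both scales. That of CCT7 (332 and 666 reads) turned with the scaling, at 0.12 by normalized densities and -0.14 by library sums. The larger differences were in sparser exon windows of the same genes. CCT2 had 51 lactate and 237 ddH2O reads at chr12:69589394-69589870, with log2 ratios of -1.42 and -1.33, and CCT6A had 38 and 180 reads at chr7:56055539-56055932, with log2 ratios of -1.51 and -1.35. CCT5 had 4 and 31 reads in its only window with at least 20, with log2 ratios of -2.43 and -1.82 (library-sum interval -4.05 to -0.59). One CCT3 peak had a fold of 11.1 over input with lactate and 3.45 with ddH2O, in a window of 9 and 19 reads. These folds need not rest on the window reads.

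**Figure D1:**
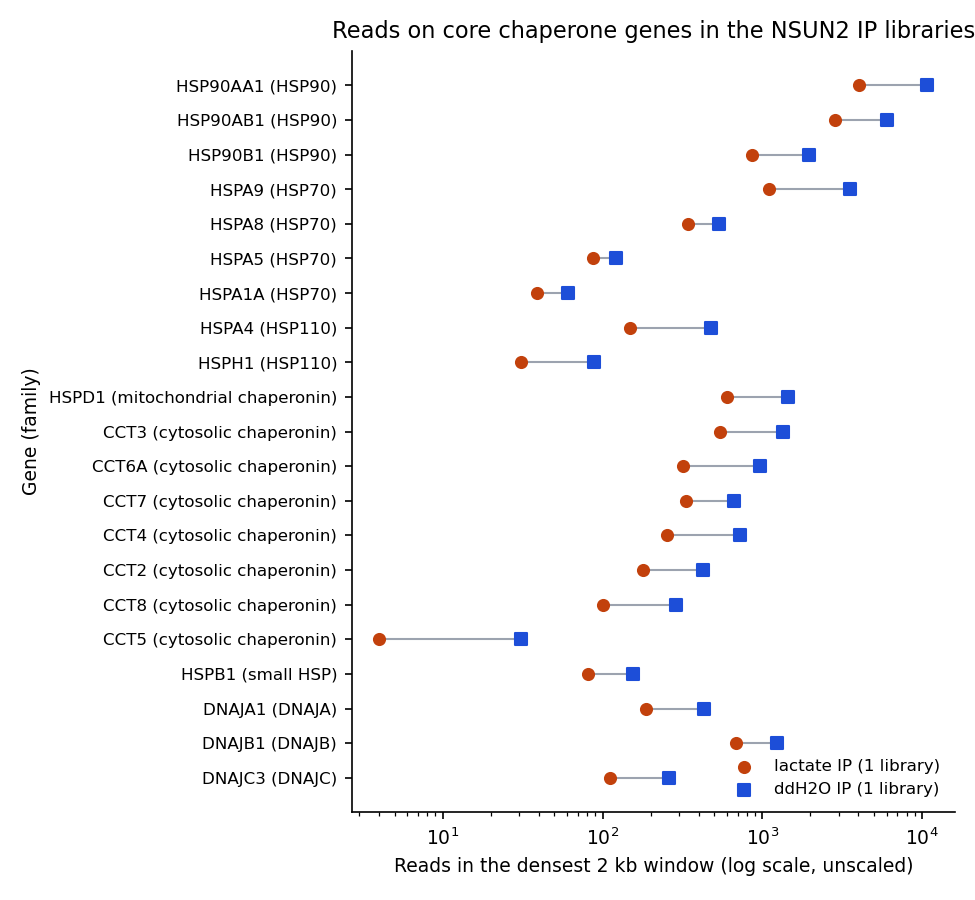
Reads in the densest window of each gene of a fixed list of core chaperones (log scale), 1 lactate IP and 1 ddH2O IP library. The ddH2O point lies to the right of the lactate point for every gene plotted, from CCT5 (4 and 31 reads) to HSP90AA1 (4049 and 10792 reads).

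The J-domain proteins bring clients to HSP70 and start its ATP cycle, and with 36 genes they were the largest group. DNAJB1, the main cytosolic partner of HSP70 in the heat shock response, had the densest window of the group, at chr19:14514709-14515184 in its 3′ UTR. It held 687 lactate and 1232 ddH2O reads, with log2 ratios of 0.45 and 0.02 and a library-sum interval of -0.12 to 0.16. DNAJA1, a farnesylated partner of cytosolic HSP70, had 187 and 433 reads in a 3′ UTR window, with log2 ratios of -0.20 and -0.34. DNAJC3, an inhibitor of eIF2α kinases and a co-chaperone of BiP, had 111 and 260 reads in its densest window and log2 ratios of -0.34 and -0.36.

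Lower J-domain windows lay in exons and introns of several genes. DNAJC2, which works at the ribosome, had 10 lactate and 51 ddH2O reads in an intron window at chr7:103331640-103332027, with log2 ratios of -1.84 and -1.38. DNAJC8, a spliceosome-associated J-protein, had 15 and 62 reads at chr1:28208173-28208597, with log2 ratios of -1.51 and -1.11. DNAJB12, of the endoplasmic reticulum membrane, had 49 and 203 reads at chr10:72336354-72336809, with log2 ratios of -1.28 and -1.17, in a peak of 7.91-fold over input with lactate and 15.7-fold with ddH2O. A nearby DNAJB12 exon window had 1 lactate read and 23 ddH2O reads and the lowest normalized log2 ratio of any chaperone window with at least 20 reads (-3.49), where the ddH2O over lactate read ratio of 23.0 had an interval of 3.73 to 947.

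By normalized densities 4 windows were over 2-fold higher with lactate, and all 4 were in introns of J-domain genes. They were in DNAJC13, an endosomal protein (20 lactate and 6 ddH2O reads, log2 ratios 1.82 and 2.45), DNAJB14 (18 and 8 reads, 1.33 and 1.94), DNAJC3 (16 and 9 reads, 1.02 and 1.63) and DNAJC24, a factor of diphthamide synthesis (32 and 21 reads, 1.01 and 1.45). These rest on few reads. The interval of the ddH2O over lactate read ratio reached from 0.099 to 0.775 for DNAJC13 and from 0.36 to 1.17 for DNAJC24. The DNAJC24 intron peak had a fold over input of 9.51 with lactate and 2.38 with ddH2O. Elsewhere in DNAJC24, a 3′ UTR window had 54 lactate and 169 ddH2O reads with log2 ratios of -0.89 and -0.77.

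High folds beside sparse window reads were found in DNAJC7 and DNAJC5. DNAJC7, which binds both HSP70 and HSP90, had an exon peak of 8.34-fold with lactate and 14.3-fold with ddH2O. Its window held 17 and 11 reads. DNAJC5, the synaptic vesicle protein CSPα, had an intron peak of 4.25-fold and 13.9-fold in a window of 18 and 26 reads. Window reads and called peaks did not always match. The DNAJC7 ddH2O peak had a q-value of 1.3e-45 in the peak list. A DNAJA2 window held 0 ddH2O reads under a ddH2O peak of 7.70-fold. The reason was not tested, and a fold need not rest on the window reads printed beside it. The genes with the most merged peaks were DNAJC1 (30), HSP90AA1 (24), DNAJC10 (19), DNAJB6 (16) and DNAJC3 (13). In DNAJC10, a disulfide reductase of the endoplasmic reticulum, 12 of the windows were labelled 3′ UTR, and the densest had 173 and 278 reads with log2 ratios of 0.26 and 0.18. The ddH2O peaks with this label ran from chr2:182728459 to chr2:182784900, with exon and intron peaks between them. The label thus need not mean the end of the main transcript. In DNAJC1, a J-protein of the endoplasmic reticulum membrane, 19 of the 30 windows were intronic and the densest held 47 and 109 reads with log2 ratios of -0.53 and -0.33. Across the 62 members with a RefSeq length, longer genes had more windows (Spearman's rho 0.74, over genes and as a description) but not denser ones (rho -0.13 with the reads of the densest window).

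The small heat shock proteins hold unfolding proteins without ATP, and they gave few reads. HSPB1 (HSP27) had 81 lactate and 156 ddH2O reads in a 3′ UTR window at chr7:76304068-76304292, with log2 ratios of -0.16 and -0.07. HSPB8 had 22 and 41 reads, with log2 ratios of -0.41 and -0.01. Neither of the 2 small heat shock windows with at least 20 reads passed 2-fold on either scale. The symbol rule also took in HSPBP1 and HSPBAP1, which bind chaperones and are not of these families, and the readthrough gene HSPE1-MOB4. HSPBP1 had 82 and 169 reads in its densest window, with log2 ratios of -0.24 and -0.17, and an exon peak of 8.91-fold over input with lactate and 6.09-fold with ddH2O.

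By normalized densities the median log2 ratio was below 0 in every family, whereas by library sums it was above 0 for HSP70 (0.20), DNAJA (0.14) and DNAJB (0.10). Called peaks of the members overlapped 400 merged peaks, of which 108 came from both lists, 239 from the ddH2O list alone and 53 from the lactate list alone. At least 20 reads over both IP libraries were in 180 windows, and among these 4 (2.22%) were over 2-fold higher and 42 (23.3%) over 2-fold lower with lactate by normalized densities. The background over all 37925 windows with that many reads was 7.65% higher and 18.6% lower. By library sums 8 (4.44%) were higher and 24 (13.3%) lower, where the background was 17.0% higher and 8.77% lower. With sums over all windows, MT-RNR2 included, 2 were higher and 114 lower (63.3%), against a background of 3.94% and 37.9%. The median log2 ratio of the chaperone windows was -0.40 by normalized densities, against -0.20 over all windows, and -0.29 by library sums, against 0.13. Of the 52 members with such a window, 23 (44.2%) had at least 1 that was over 2-fold lower and 4 (7.69%) at least 1 that was over 2-fold higher by normalized densities, against 36.8% and 16.0% of the 8969 protein-coding genes with such a window. By library sums 16 (30.8%) had a lower and 7 (13.5%) a higher one, against 21.1% and 29.1%. Windows overlapped a neighbour at 207 of the 400 merged peaks (51.75%), so counts of windows count some reads more than once.

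Without any scaling, the ddH2O IP held more reads in all 96 chaperone windows with at least 100 reads. The same was true of 95.3% of the 9210 windows of that depth over the whole experiment, so this direction was shared by nearly all dense windows. Windows of the members took 1.55% of the reads outside MT-RNR2 and MALAT1 with lactate and 2.07% with ddH2O. In windows of 500 reads or more, 23 of the 31 chaperone windows lay on the same side of 0 by both scalings. The 31 chaperone windows of that depth had a median log2 ratio of -0.04 by normalized densities and -0.44 by library sums, where all windows of that depth had 0.12 and -0.13.

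**Figure D2:**
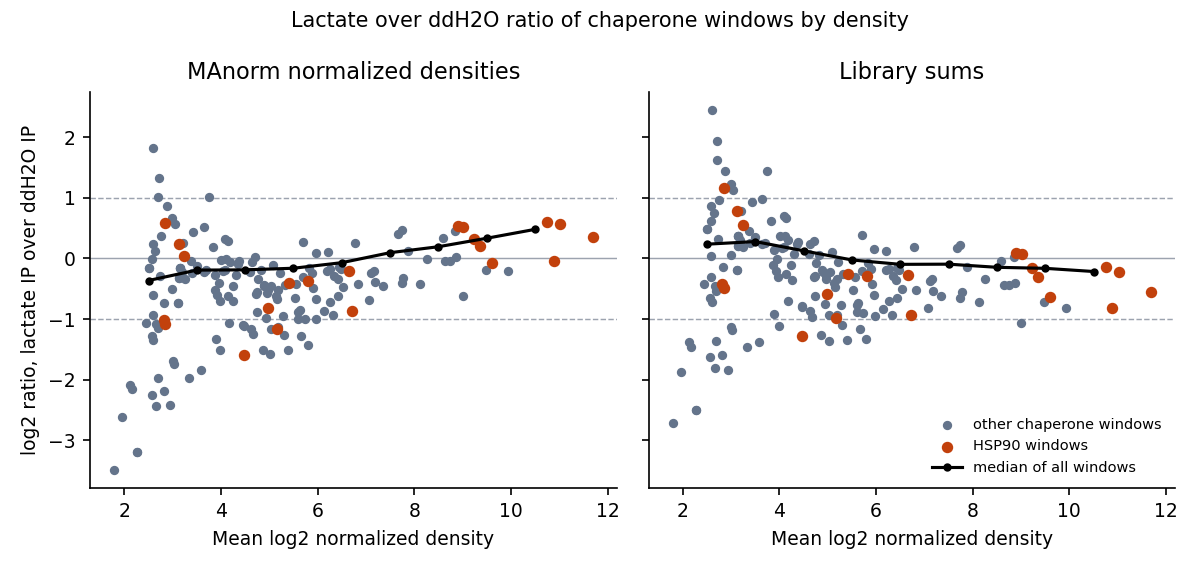
Log2 ratio of lactate over ddH2O of the 180 chaperone windows with at least 20 reads against their mean log2 normalized density, by MAnorm densities (left) and by library sums (right). Points are windows, HSP90 windows are orange, the black line joins the median of all windows in each density step, and dashed lines mark 2-fold. The densest HSP90 windows lie near or above 0 on the left and below or near 0 on the right.

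Most of the lower windows lay in exons by both scalings. Regions are those of the deposited annotation, and some overlapping peaks were labelled exon in 1 list and 3′ UTR in the other. An example is HSP90AB1 at chr6:44253505-44253847, so the split between exons and 3′ UTRs is uncertain. Of the 93 exon windows with at least 20 reads, 28 were over 2-fold lower and none over 2-fold higher by normalized densities, with a median log2 ratio of -0.56. By library sums 19 exon windows were lower and 2 higher, with a median of -0.42. The 55 windows in 3′ UTRs had 6 lower and none higher, with a median of -0.19, and by library sums none in either direction, with a median of -0.17. The 31 intron windows had 8 lower and 4 higher with a median of -0.27, but 5 lower and 6 higher with a median of 0.21 by library sums, so their direction turned with the scaling. Over all protein-coding genes, the normalized medians were -0.39 for exons, -0.22 for 3′ UTRs and -0.03 for introns. By that scale 22.7% of their exon windows, 15.5% of their 3′ UTR windows and 17.3% of their intron windows were over 2-fold lower, and 2.12%, 2.28% and 13.0% over 2-fold higher. By library sums their medians were -0.14, -0.02 and 0.45, with 11.6%, 7.03% and 7.66% lower and 6.81%, 6.63% and 27.3% higher.

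The fold over input set each IP against its own input and did not use the scaling between the IP libraries. How the peak caller scaled an IP to its input is not given in the sources used here, and the part of the MT-RNR2 share in these folds was not tested. In 107 windows the members had a peak called in both lists, and the fold was lower with lactate in 79 of them (73.8%), with a median log2 difference of -0.32. Over 23178 such windows of all protein-coding genes the share was 59.4% and the median -0.19. In chaperone windows with at least 100 reads, 51 of 56 (91.1%) were lower with lactate, with a median of -0.50, where all protein-coding windows of that depth gave 67.7% and -0.36. All 10 such HSP90 windows were lower, with a median of -0.73. Peaks present in only 1 list have no fold in the other and stay outside this comparison. Over whole lists the median fold of the members, 3.24 with lactate and 3.03 with ddH2O, was the same as that of all protein-coding peaks to this precision. Other choices of peaks gave other comparisons. At a q-value below 0.05 the members had 4.28 with lactate and 3.79 with ddH2O, against 4.81 in both lists for all protein-coding peaks, and in exons and UTRs 2.97 and 3.25 against 3.64 and 3.49. At a fold of at least 4 the medians were close, at 5.26 and 5.50 against 5.31 and 5.50. With the highest peak of each gene the members had 4.53 with lactate, below the 4.74 of all genes, and 5.46 with ddH2O, above the 5.33 of all genes.

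Chaperone peaks lay more often in mature transcript than protein-coding peaks at large. Exons and UTRs held 63.75% of the lactate peaks (Wilson 95% interval 56.1 to 70.8%) and 62.2% of the ddH2O peaks (57.0 to 67.1%). Over all protein-coding peaks these shares were 38.5% and 38.8%. Exons alone took 33.75% of the lactate and 39.5% of the ddH2O chaperone peaks, and 3′ UTRs took 28.75% and 20.9%. Introns took 36.25% and 37.8%, against 61.5% and 61.2% of all protein-coding peaks. Peaks of 1 gene share its transcript, so the intervals are too narrow as statements about genes. The deposited annotation named 3′ UTR for peaks spread along CCT3 and DNAJC10, so a 3′ UTR label need not mean the end of the main transcript.

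Copies of chaperone genes in the genome also carried peaks. Pseudogenes whose symbols match the rule had a peak in 11 cases with lactate and 22 with ddH2O, 9 of the 22 being HSP90 pseudogenes. The share over all pseudogenes is not given here. The ddH2O list was longer for the whole experiment too (95785 against 48104 peaks), so these counts are no contrast with other pseudogenes. The densest HSP90AA2P window had 184 lactate and 671 ddH2O reads (log2 ratios -0.81 and -0.998), and that of HSP90AB3P 153 and 334 (-0.17 and -0.26). Reads of near-identical copies could be split between gene and pseudogene, so the levels of HSP90AA1, HSP90AB1 and HSPD1 are uncertain to that extent.

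The partners of these chaperones were taken from a list of 42 cochaperones, prefoldin subunits and heat shock regulators. A lactate peak was found for 27 (64.3%) and a ddH2O peak for 36 (85.7%), beside the background of 47.1% and 58.4% given above, and 5 had none (STUB1, GRPEL2, PFDN1, PFDN4 and CRYAB). Of their 79 windows with at least 20 reads, 4 (5.06%) were over 2-fold higher and 14 (17.7%) over 2-fold lower by normalized densities, near the background of 18.6% for lower windows and under the 7.65% for higher ones. By library sums 5 (6.33%) were higher and 5 lower, against 17.0% and 8.77%. Their medians were -0.30 and -0.10. STIP1 (HOP), which hands clients from HSP70 to HSP90, had 422 lactate and 839 ddH2O reads, with log2 ratios of 0.19 and -0.13. HSF1, heat shock factor 1 itself, had 184 and 278 reads, with log2 ratios of 0.35 and 0.27. PTGES3 (p23), which steadies the closed form of HSP90, had 54 and 35 reads in its densest window, with log2 ratios of 1.16 and 1.47, on the lactate side. HYOU1, the large HSP70-like protein of the endoplasmic reticulum, had 153 and 363 reads, with log2 ratios of -0.28 and -0.38.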

How the data were processed

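NSUN2 RIP-seq of PANC-1 cells was analysed from 2 peak lists, 1 for each condition, and 1 table of merged peaks. According to the submitters' processing notes, fastp 0.20.1, HISAT2 2.1.0, MACS2 2.2.7.1, bedtools 2.29.2, HOMER 4.11.1 and DiffBind were used on GRCh38. The paper's Methods name MAnorm. The authors deposited a fold (a ratio of IP over its own input) and a q-value for each peak, called separately in each IP library, and for each merged peak the normalized signal (read density) of both IP libraries. The deposited columns of the authors' own comparison (M, A and P values) were not used. The depth of the input libraries is unknown.

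Members were found by symbol and protein-coding biotype. The members and lists were chosen with earlier results of these data known. A merged peak was given to a gene when it overlapped 1 of its called peaks by at least 1 base, and it took its region from the called peaks. Log2 ratios were taken between the densities. Reads per window of 2000 bases were recovered by finding the line in density that MAnorm had removed, and were whole within 0.05 in 99.998% of windows. Library sums used 1 added read. The step was tested on simulated data. Windows with under 20 reads over both IP libraries were left out of counts past 2-fold. With 1 library per group there was no test, and exact binomial and Wilson intervals at the 95% level cover counting error only.

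The genes named were a fixed core list of 24 genes, the 10 with the densest windows, the 5 with the highest and the 5 with the lowest log2 ratio in a window of at least 50 reads, the 5 with the most merged peaks and the 5 with the highest fold in each list. Others named were chosen after their values were seen. Alternatives were other read minimums, scalings, overlaps, fold and q-value thresholds, exon and UTR peaks, and windows with no neighbour. Promoters came from RefSeq (GRCh38.p14). The work was done in Python 3.11.15 (numpy 2.4.6, scipy 1.17.1, pandas 2.3.3, matplotlib 3.10.9).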

Additional observations from a re-analysis of the deposited data

How the results depend on the processing

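No paired analysis was possible because each group had 1 library. The share of exons and UTRs among chaperone peaks moved to 81.0% (lactate) and 79.1% (ddH2O) at a q-value below 0.05, to 71.6% and 68.2% when bases were counted, and to 74.2% (ddH2O) at a fold over input of at least 4. That fold left 29 members with a lactate peak and 39 with a ddH2O peak. The median fold became 4.28 and 3.79 at a q-value below 0.05 (4.81 in both lists for all protein-coding peaks), 4.53 and 5.46 with the highest peak of each gene (4.74 and 5.33 for all protein-coding genes), and 3.25 for ddH2O in exons and UTRs. Of the 180 chaperone windows, 8 were over 2-fold higher and 24 lower with lactate by library sums (background 17.0% and 8.77%). By sums over all windows these were 2 and 114 (background 3.94% and 37.9%). With no read minimum 38 and 148 of 400 windows were higher and lower, and with at least 50 reads 1 and 21 of 123. Among the 45 windows that overlap no neighbour the counts were 1 and 9, and at a fold over 4 they were 0 and 10 of 180. None of the 149 exon and UTR windows was higher. For the read minimums, the windows without a neighbour and the fold over 4, the share over all windows is not given here. Those counts are thus no contrast with other genes. The median log2 ratio was -1.18 by sums over all windows and -0.52 with no read minimum, where all windows of the experiment had -0.77 and -0.50. The cause of each change was not tested. The median log2 ratio over all chaperone windows stayed below 0 under each alternative, whereas 8 of the 31 windows of 500 reads or more (in HSP90AA1, HSP90AB1, HSP90B1, HSPD1, CCT7 and DNAJB1) and the medians of intron windows, HSP70, DNAJA and DNAJB turned to the other side of 0 by library sums. The median of all windows of the experiment was also below 0 by normalized densities (-0.20), by sums over all windows and with no read minimum. By library sums it was above 0 (0.13). MT-RNR2 takes most window reads, so the choice to count it moves each ratio, and windows near 20 reads carry wide counting intervals.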
